A study of Mus musculus with 18 samples.

Results

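The set described here is 6 genes of cellular zinc handling: the metallothioneins Mt1 and Mt2, the zinc-sensing transcription factor gene Mtf1, the zinc exporter gene Slc30a1 and the zinc importer genes Slc39a1 and Slc39a14. They were taken by symbol from the count tables, and all 6 were present among 23052 gene symbols and passed the filter on low counts in both tables. The genes were chosen by their symbols after expression results of these same libraries had been seen. Which comparisons weighed in that choice is not recorded, so all are treated as used: fold changes and adjusted p-values here describe a difference against the spread between libraries and are not independent evidence. The libraries are total RNA of bone marrow-derived macrophages from wild type C57BL6/J mice, grown for 7 days in 20% L929-conditioned medium with 80% DMEM containing serum. One table holds endotoxin-tolerant macrophages in 3 groups of 4 libraries: with glutamine, without it, and with α-ketoglutarate (AKG) in glutamine-free medium. The other holds 3 groups of 2 libraries: controls, cells after 6 h of IL-4 and cells after 6 h of LPS. The labels give no dose, no schedule of the tolerizing endotoxin and no statement that replicates came from separate animals or cultures, so p-values measure only the spread between these libraries, which may be technical. All 12 libraries of the first table share the tolerant state, so that state cannot be told apart from the table. The tables were normalized and tested separately.

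Metallothioneins are small cysteine-rich proteins that bind zinc and copper ions and release them to other proteins. Free zinc activates MTF1, which binds short metal response elements in promoters and raises transcription of metallothionein genes and of Slc30a1. ZnT (Slc30) carriers move zinc out of the cytosol and ZIP (Slc39) carriers move it in, and macrophages use both to starve or poison ingested microbes. Inflammatory cytokines and glucocorticoids also raise metallothionein and Slc39a14 transcripts in several tissues.

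Promoter windows are shown for Mt1, Mt2 and Slc30a1, the genes known as targets of MTF1. Mt1 and Mt2 changed significantly in the same comparisons and directions, by unlike amounts, while Slc30a1 followed another course in the stimulation table. Each window, from RefSeq on build GRCm38.p6, runs from 250 bases before to 50 bases after the annotated start, 5′ to 3′ on the gene's strand. Capitals mark the core of the metal response element, TGCACNC or TGCGCNC, searched on both strands. All 3 genes lie on the plus strand. The windows are chr8:94178839-94179138 for Mt1, chr8:94172368-94172667 for Mt2 and chr1:191906531-191906830 for Slc30a1.
Mt1: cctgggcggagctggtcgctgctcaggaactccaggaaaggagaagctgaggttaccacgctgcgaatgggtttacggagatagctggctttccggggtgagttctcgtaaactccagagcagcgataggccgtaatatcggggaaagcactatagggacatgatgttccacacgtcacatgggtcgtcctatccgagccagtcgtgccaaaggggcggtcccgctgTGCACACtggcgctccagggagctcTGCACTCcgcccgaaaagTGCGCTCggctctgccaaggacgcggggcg
Mt2: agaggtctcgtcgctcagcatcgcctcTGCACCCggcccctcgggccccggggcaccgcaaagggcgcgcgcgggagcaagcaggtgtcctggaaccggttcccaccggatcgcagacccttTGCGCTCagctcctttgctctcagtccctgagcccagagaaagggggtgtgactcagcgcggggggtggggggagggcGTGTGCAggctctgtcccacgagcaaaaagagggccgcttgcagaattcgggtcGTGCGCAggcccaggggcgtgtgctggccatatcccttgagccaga
Slc30a1: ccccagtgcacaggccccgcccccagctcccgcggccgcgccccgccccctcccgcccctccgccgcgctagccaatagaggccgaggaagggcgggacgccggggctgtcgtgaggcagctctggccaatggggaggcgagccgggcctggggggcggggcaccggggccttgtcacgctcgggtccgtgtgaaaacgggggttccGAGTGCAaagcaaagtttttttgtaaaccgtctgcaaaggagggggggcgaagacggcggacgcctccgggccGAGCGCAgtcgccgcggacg

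The Mt1 window held 3 cores, the Mt2 window 4 and the Slc30a1 window 2. Of 32851 RefSeq promoter windows of the same length, 25.7% held at least 1 core, 7.11% at least 2, 1.97% at least 3 and 0.517% at least 4. The windows of Mtf1 and Slc39a1 held none. In Mt1 the cores began 23 bases before and 3 and 21 bases after the annotated start, all on the plus strand. In Mt2 they began 223, 128 and 50 bases before the start and 5 bases after it, the last 2 on the minus strand. These places are from the RefSeq start. Mt1 has 3 transcripts in GENCODE, and its cores were not placed against their separate starts. GENCODE begins Mt2 at base 94172664, close to the end of its window at 94172667, so all 4 Mt2 cores lie before that start. GENCODE begins Mtf1 at base 124802104, before its window opens at 124802299, so its count depends on the start used. The antioxidant response core TGACNNNGC, a site of NRF2, occurred once each in Mt2, Slc30a1 and Slc39a1, and at least once in 12.4% of all windows. The spaced STAT half-sites TTCNNNGAA occurred in none of the 5 windows and in 8.30% of all windows. These are matches of letters and were not tested as binding sites. Bases outside the windows were not searched, so a core missing here can lie beyond them.

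In GENCODE vM21 annotation of GRCm38, Mt1 lies at chr8:94179082-94180327 and Mt2 at chr8:94172664-94173568, with 5513 bases between them. Slc30a1 lies at chr1:191906767-191913247, Mtf1 at chr4:124802104-124849800 and Slc39a1 at chr3:90248172-90253612, all on the plus strand. Slc39a14 lies at chr14:70303469-70351425 on the minus strand. The 2 metallothionein genes share no 50-base stretch of transcript with each other or with any other gene, and their longest shared run was 20 bases. Mt2, Slc30a1 and Mtf1 each overlap a gene on the other strand, and Mtf1 also a small gene on its own strand. How strand was treated in counting is not stated, so reads of those partners cannot be told apart from the gene's own.

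Library totals were 28.3 to 37.8 M counts in the tolerant table and 34.2 to 39.8 M in the stimulation table. Levels are CPM, each gene's counts relative to the library total, after TMM scaling, which corrects totals by a trimmed mean of gene ratios between libraries. The 9 macrophage markers summed to between 27168 and 47438 CPM over all libraries. In the tolerant table, replicates 1 and 2 stood apart from replicates 3 and 4 in every group, with no label for what that division is. Markers of stromal fibroblasts followed both that division and glutamine. Their summed level over 8 genes was 392 to 2064 CPM with glutamine, 48.4 to 204 without it and 108 to 391 with AKG, and none of the 8 was at 0 throughout. Neutrophil, lymphocyte and erythroid markers each summed to at most 1.96 CPM in every library, and mast cell markers to at most 5.09 CPM, in a glutamine-free library. A change of a transcript in bulk RNA can come from fewer cells of a type or less RNA per cell, which cannot be told apart here.

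Tolerant macrophages without glutamine had more Mt1 and Mt2 transcript than those with it, and those with AKG had less of both than those without glutamine. Of the 6 genes, 2 passed edgeR's quasi-likelihood test at an adjusted p under 0.05, hereafter called, when glutamine was left out, Mt1 and Mt2, both higher, where 4.7% of 12492 genes tested were called (2.3% higher and 2.4% lower). With AKG added to the glutamine-free medium, 2 of 6 were called, again Mt1 and Mt2 and both lower, where 1.49% of all genes were (0.64% higher and 0.849% lower). The other 4 genes were not called in either comparison by this fit, which had no replicate block. With replicates 1 and 2 against 3 and 4 as a factor, 5 of 6 were called without glutamine (4 higher and 1 lower), where 3090 genes were. With AKG against no glutamine that factor gave 3 of 6, all lower, where 2312 genes were called. Both comparisons share the libraries without glutamine.

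Mt2, which encodes metallothionein-2, stood at 10.4, 11.9, 8.48 and 9.51 CPM in replicates 1 to 4 with glutamine. Without glutamine it stood at 31.2, 34.0, 24.2 and 23.5 CPM. With AKG it stood at 13.8, 11.2, 10.1 and 10.9 CPM. All 4 glutamine-free libraries lay above all 8 others, and the groups with glutamine and with AKG overlapped. Mt2 was 2.80-fold higher without glutamine than with it (log2 1.49, SE 0.15, edgeR adjusted p = 0.0017), the sixth gene of the whole table by p-value. With AKG it was 2.46-fold below that level (log2 -1.30, SE 0.15, adjusted p = 0.0061).

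Mt1, encoding the sister protein, was at 38.8, 42.7, 34.7 and 35.7 CPM with glutamine. Without glutamine it was at 69.1, 76.0, 56.4 and 51.2 CPM, and with AKG at 41.8, 39.9, 34.6 and 33.0 CPM. Here too the glutamine-free libraries did not overlap the others. The difference was 1.66-fold without glutamine (log2 0.73, SE 0.13, edgeR adjusted p = 0.0121) and 1.69-fold lower with AKG (log2 -0.76, SE 0.13, adjusted p = 0.0227). The call with AKG was lost when replicate 1 or 2 without glutamine, or replicate 2, 3 or 4 with AKG, was left out, with adjusted p-values of 0.0646 to 0.0793, and when the 2 groups were fitted alone (adjusted p = 0.0693). In each of the 3 tolerant groups, replicates 1 and 2 had higher Mt1 and Mt2 than replicates 3 and 4.

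**Figure D1:**
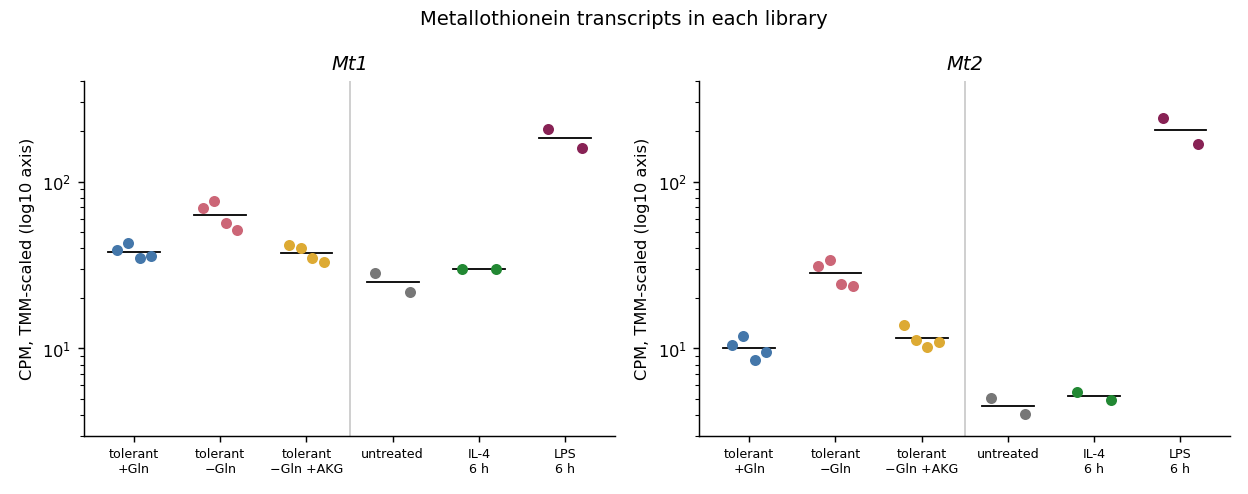
Mt1 (left) and Mt2 (right) in each of 18 libraries, as TMM-scaled CPM on a log10 axis; points are libraries in replicate order, bars are group means, and the grey line separates the 2 tables, which were scaled separately. The 4 glutamine-free libraries lie above the other tolerant libraries for both genes, and the LPS libraries (Mt2 at 240.2 and 168 CPM) lie above all others.

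The rise of the metallothioneins was present in both sets of replicates. Among replicates 1 and 2 alone the log2 difference without glutamine was 0.83 for Mt1 and 1.54 for Mt2, and among replicates 3 and 4 alone it was 0.63 and 1.43. The fall with AKG was -0.83 for Mt1 and -1.39 for Mt2 in replicates 1 and 2, and -0.66 and -1.18 in replicates 3 and 4. An interaction term in edgeR was not called for either gene, with adjusted p-values of 0.41 to 0.845. With 2 libraries per group in each set it could not exclude a difference. For Mt1 without glutamine the term was -0.22 (SE 0.11). Of 7 stromal fibroblast markers that could be tested, 5 were lower without glutamine and none was called with AKG. The part of stromal RNA in the metallothionein result was not tested. With AKG the stromal sum was above that of the same-numbered library without glutamine in 4 of 4 pairs, at 148 against 53.2, 108 against 48.4, 379 against 204 and 391 against 188 CPM.

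AKG in place of glutamine left no member called, with 0 of 12492 genes called by edgeR in that comparison (0%). At an unadjusted p under 0.05 there were 916 genes, limma-voom called 0, DESeq2 called 232 and the fit with the replicate number as a block called 876, with 0 members. The log2 difference of AKG from glutamine was -0.03 for Mt1 (95% interval -0.31 to 0.26) and 0.19 for Mt2 (-0.14 to 0.52). Those intervals, from the fit without the block, still allow Mt2 to be higher with AKG.

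The 2 metallothioneins did not change in proportion. Per kilobase of transcript (549 bases for Mt1 and 511 for Mt2), Mt2 made up 22.1 ± 0.93% (SD, n = 4) of the pair with glutamine. It made up 32.4 ± 0.64% (n = 4) without glutamine and 24.8 ± 1.53% (n = 4) with AKG. These 3 groups did not overlap: 20.8 to 23.0% with glutamine, 31.5 to 33.0% without it and 23.2 to 26.2% with AKG. The share was 16.2 and 16.5% in the control libraries, 16.5 and 15.0% with IL-4, and 55.7 and 53.1% with LPS. With LPS Mt2 was thus the more abundant transcript of the pair per length, and in the other 5 groups Mt1 was. The summed level of both genes averaged 48.1 CPM with glutamine, 91.4 without it, 48.8 with AKG, 29.6 in controls, 35.1 with IL-4 and 386 with LPS. The other mouse metallothionein genes were barely seen: Mt3 had 0 to 3 counts in any library, and Mt4 had 0 in all 18, which allows up to 0.0755 to 0.106 CPM by counting error alone.

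**Figure D2:**
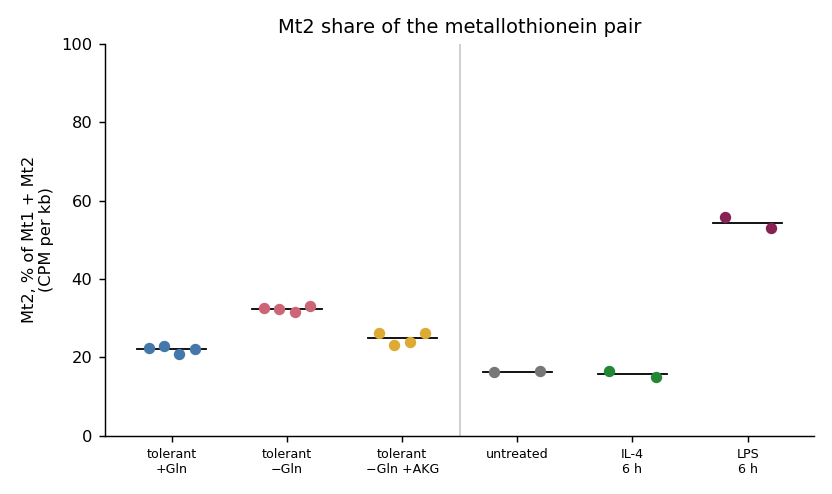
Share of Mt2 in the summed Mt1 and Mt2 level (CPM per kilobase, in percent) in each library; points are libraries and bars are group means. The share is near 16% in control and IL-4 libraries, 32.4% on average in glutamine-free tolerant libraries and over 53% with LPS.

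Mtf1, the gene of the zinc-sensing factor itself, stayed within a narrow range. It was at 32.9, 36.9, 35.9 and 34.9 CPM with glutamine, 39.4, 37.0, 41.0 and 41.0 CPM without it, and 36.8, 33.4, 37.3 and 37.1 CPM with AKG. The glutamine-free libraries lay just above those with glutamine and overlapped those with AKG. The log2 difference without glutamine was 0.17 (SE 0.06, edgeR adjusted p = 0.165), and with AKG it was -0.13 from there (SE 0.06, adjusted p = 0.422). With replicates 1 and 2 against 3 and 4 as a factor, the first of these was called (adjusted p = 0.0354).

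Slc30a1 encodes ZnT1, which exports zinc across the plasma membrane. Its level was 44.6, 41.8, 38.2 and 34.9 CPM with glutamine, 45.6, 46.8, 51.5 and 57.8 CPM without it, and 43.5, 37.5, 38.7 and 41.0 CPM with AKG. All glutamine-free libraries lay above the 8 others, but replicates 1 and 2 only narrowly. The log2 difference of 0.34 without glutamine (SE 0.10) was not called (edgeR adjusted p = 0.0779). It was called with the replicate block (adjusted p = 0.0377), with replicates 1 and 2 against 3 and 4 as a factor (0.0201), by DESeq2 (0.027) and in replicates 3 and 4 alone (0.0116). It measured 0.60 there and 0.10 in replicates 1 and 2 alone (adjusted p = 0.367). The test of that difference gave an adjusted p of 0.0976. With AKG the log2 difference from the glutamine-free level was -0.33 (SE 0.10, adjusted p = 0.142), and it was called (adjusted p = 0.0314) only with replicates 1 and 2 against 3 and 4 as a factor, of the alternatives run.

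Neither importer was called in the tolerant table by the fit without a replicate block. Slc39a1 encodes ZIP1, a plasma membrane importer, and stood at 178, 191, 148 and 146 CPM with glutamine, 172, 171, 157 and 141 CPM without it, and 182, 195, 139 and 149 CPM with AKG. The groups overlapped fully, and the log2 difference without glutamine was -0.05 (95% interval -0.33 to 0.24, edgeR adjusted p = 0.912). Replicates 1 and 2 were above replicates 3 and 4 in all 3 groups. Slc39a14 encodes ZIP14, an importer of zinc, manganese and iron. It stood at 65.3, 76.7, 51.8 and 50.3 CPM with glutamine, 52.2, 55.8, 50.8 and 45.4 CPM without it, and 58.5, 61.1, 42.9 and 47.0 CPM with AKG. The log2 difference without glutamine was -0.26 (SE 0.15, adjusted p = 0.444). It was -0.40 in replicates 1 and 2 alone (adjusted p = 0.0039) and -0.06 in replicates 3 and 4 alone, and with that division as a factor it was called (adjusted p = 0.0438).

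With the replicate block 2707 of 12492 genes were called without glutamine in place of 587, and 3 of the 6 members (Mt1, Mt2 and Slc30a1). With AKG against no glutamine the block gave 1917 in place of 186, and the same 2 members as before. Groups did not overlap for 4 of 6 members without glutamine (Mt1, Mt2, Slc30a1 and Mtf1), against 12.4% of all genes tested, and for 3 of 6 with AKG against no glutamine (Mt1, Mt2 and Slc30a1), against 9.1%.

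In the whole carrier families, Slc30a1, Slc39a1 and Slc39a14 included, few genes were called with glutamine left out. Of 6 ZnT genes tested out of 10, 0 were called in either direction without glutamine, with a median log2 difference of 0.18. Of 13 ZIP genes tested out of 14, 1 was lower and 0 were higher, with a median of -0.05. Over all genes tested, 2.3% were higher and 2.4% lower, and the median was -0.01. The lower one was Slc39a10, a plasma membrane zinc importer, which fell from 44.4, 38.6, 39.2 and 39.9 CPM to 29.6, 29.2, 17.4 and 27.3 CPM (log2 -0.65, SE 0.14, edgeR adjusted p = 0.0256). That call was lost when replicate 1, 3 or 4 with glutamine or replicate 4 without it was left out, and when the 2 groups were fitted alone. With the block, 6 zinc carriers were called, 3 higher and 3 lower, where 2707 of 12492 genes tested were called. The factor of replicates 1 and 2 against 3 and 4 gave 7, 3 higher and 4 lower, where 3090 genes were called. With AKG, against either other group, 0 carriers were called. With the block 1 was lower in each, where 1917 genes were called against no glutamine and 876 against glutamine.

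Of 10 copper-handling genes tested, 1 was called without glutamine, where 4.7% of all genes were. Slc31a2, a copper carrier of intracellular membranes, rose from 108, 120, 135 and 126 CPM to 170, 186, 206 and 190 CPM (log2 0.62, SE 0.11, edgeR adjusted p = 0.0114). Of 8 glucocorticoid-responsive genes, 5 genes of STAT3 feedback and 2 zinc-binding S100 genes, 0 were called in any tolerant comparison by the fit without a replicate block, where 4.7%, 1.49% and 0% of all genes were called without glutamine, with AKG against no glutamine and with AKG against glutamine. Some of these genes spread widely within groups, such as Socs3 at 39.7 to 241 CPM with glutamine. Their calls under the block or the factor are not given here. Their median log2 differences without glutamine were -0.17, -0.05 and -0.31.

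In the stimulation table LPS raised 4 of the 6 genes and IL-4 raised 1 and lowered 1. With LPS Mt1, Mt2, Slc39a1 and Slc39a14 were called higher, where 52.1% of 12506 genes tested were called. With IL-4 Slc30a1 was called higher and Slc39a14 lower, where 20.1% were called. The control libraries enter both comparisons. Groups did not overlap for 6 of 6 members with LPS and 4 of 6 with IL-4, against 74.5% and 58.3% of all genes.

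Scaling weighs on the LPS values. TMM factors averaged 0.806 in LPS libraries, 1.10 in controls and 1.12 with IL-4. Scaling by library totals alone moved the median log2 difference of all genes with LPS from -0.10 to -0.55. It changed 2856 higher and 3663 lower calls into 1609 and 6405. The 4 members raised by LPS were called higher under every alternative run, library totals included.

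Mt2 was at 5.06 and 4.03 CPM in control libraries, 5.50 and 4.89 CPM with IL-4, and 240.2 and 168 CPM with LPS. With LPS it was 44.9-fold higher (log2 5.49, SE 0.25, edgeR adjusted p = 3.9e-05), and 5.03 on the log2 scale with library totals alone. Control and IL-4 libraries overlapped, with a log2 difference of 0.19 (95% interval -0.34 to 0.72). Mt1 was at 28.2 and 21.9 CPM in control libraries, 29.9 and 29.9 CPM with IL-4, and 205 and 160 CPM with LPS. The rise with LPS was 7.27-fold (log2 2.86, SE 0.19, edgeR adjusted p = 0.000113). IL-4 libraries lay just above the controls, and the log2 difference of 0.25 (95% interval -0.17 to 0.68) was not called.

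Slc39a14 was the other large change with LPS. It stood at 29.2 and 29.1 CPM in controls and at 505 and 434 CPM with LPS, 16.1-fold higher (log2 4.01, SE 0.13, edgeR adjusted p = 2.6e-05). With IL-4 it fell to 16.3 and 17.7 CPM, 1.71-fold below the controls (log2 -0.78, SE 0.11, adjusted p = 0.0068). The fall was not called when IL-4 replicate 1 (adjusted p = 0.0764) or replicate 2 (0.0534) was left out. Slc39a1 was at 176 and 150.2 CPM in controls, 132 and 150.4 CPM with IL-4, and 416 and 344 CPM with LPS. It rose 2.33-fold with LPS (log2 1.22, SE 0.15, adjusted p = 0.00103). Control and IL-4 levels overlapped, with a log2 difference of -0.21 (SE 0.15, adjusted p = 0.396).

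The exporter gene Slc30a1 rose with IL-4, and its difference with LPS was not called. It stood at 33.0 and 35.9 CPM in controls, 90.9 and 102 CPM with IL-4, and 38.1 and 48.6 CPM with LPS. IL-4 raised it 2.80-fold (log2 1.48, SE 0.15, edgeR adjusted p = 0.0018). With LPS the log2 difference was 0.33 (SE 0.15, adjusted p = 0.109). It was called with RLE size factors (0.0448) and by DESeq2 (0.0379), and it turned to -0.12 with library totals alone. Mtf1 was at 33.8 and 34.0 CPM in controls, 30.7 and 32.3 CPM with IL-4, and 37.6 and 38.6 CPM with LPS. Its log2 difference with LPS was 0.17 (SE 0.09, adjusted p = 0.166), and it turned to -0.28 with library totals alone, where it was called lower (adjusted p = 0.0397).

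**Figure D3:**
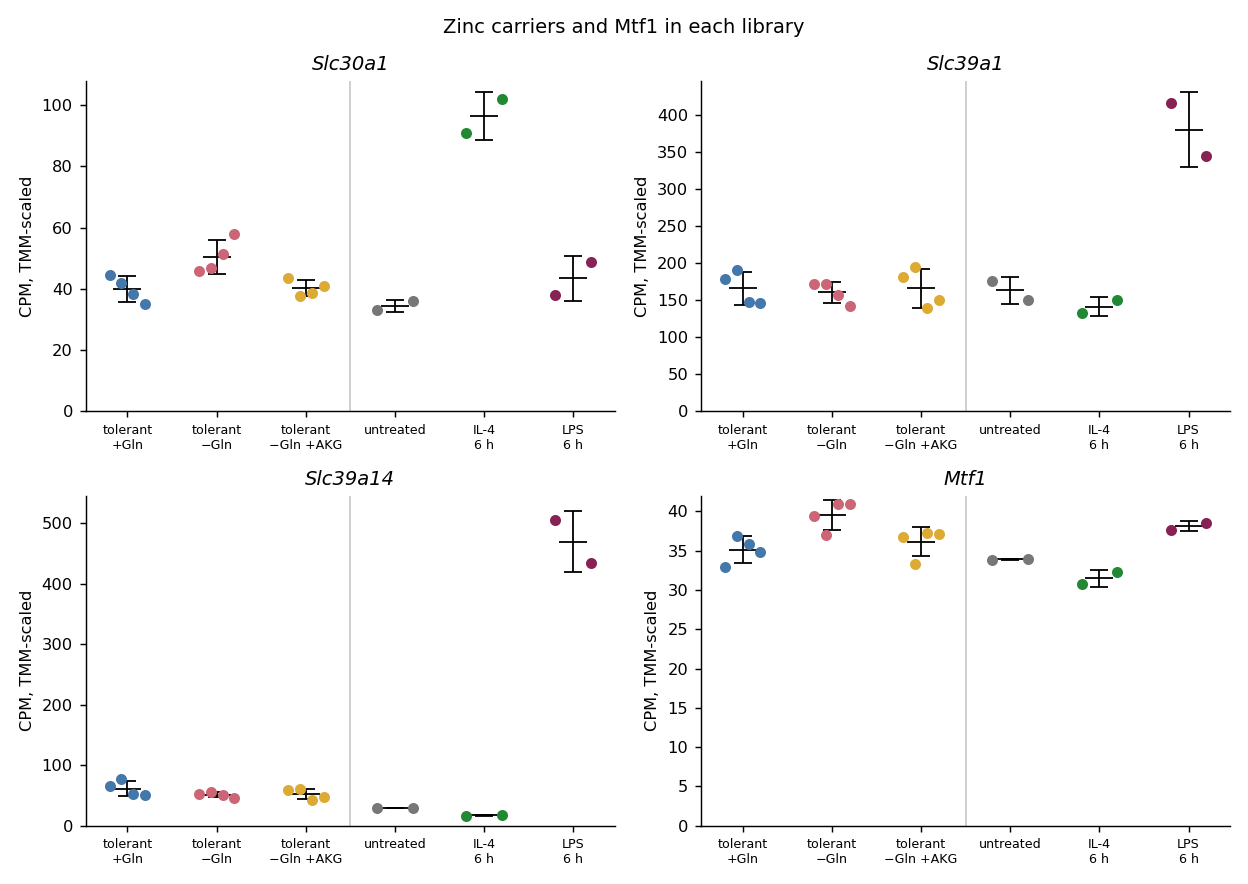
Slc30a1, Slc39a1, Slc39a14 and Mtf1 in each of 18 libraries, as TMM-scaled CPM on linear axes that start at 0; points are libraries, horizontal marks are group means and bars are SD (n = 4 in the tolerant groups, n = 2 in the others, with the grey line between tables). Slc30a1 is highest with IL-4 (90.9 and 102 CPM), Slc39a1 and Slc39a14 are highest with LPS, and Mtf1 lies between 30.7 and 41.0 CPM throughout.

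Set directly against each other, IL-4 and LPS libraries differed in all 6 genes, where 53.1% of all genes were called (29.7% higher and 23.4% lower with IL-4) and 80.3% did not overlap. Mt2 was 39.3-fold, Slc39a14 27.6-fold, Mt1 6.10-fold and Slc39a1 2.69-fold lower with IL-4. Slc30a1 was 2.22-fold higher with IL-4 (log2 1.15, SE 0.15, edgeR adjusted p = 0.00125). The Mtf1 difference of -0.27 (SE 0.09, adjusted p = 0.0438) was lost with the replicate block (0.0759), with no filter (0.112) and without any 1 of the 4 libraries of these 2 groups, and it was 0.21 with library totals alone.

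**Figure D4:**
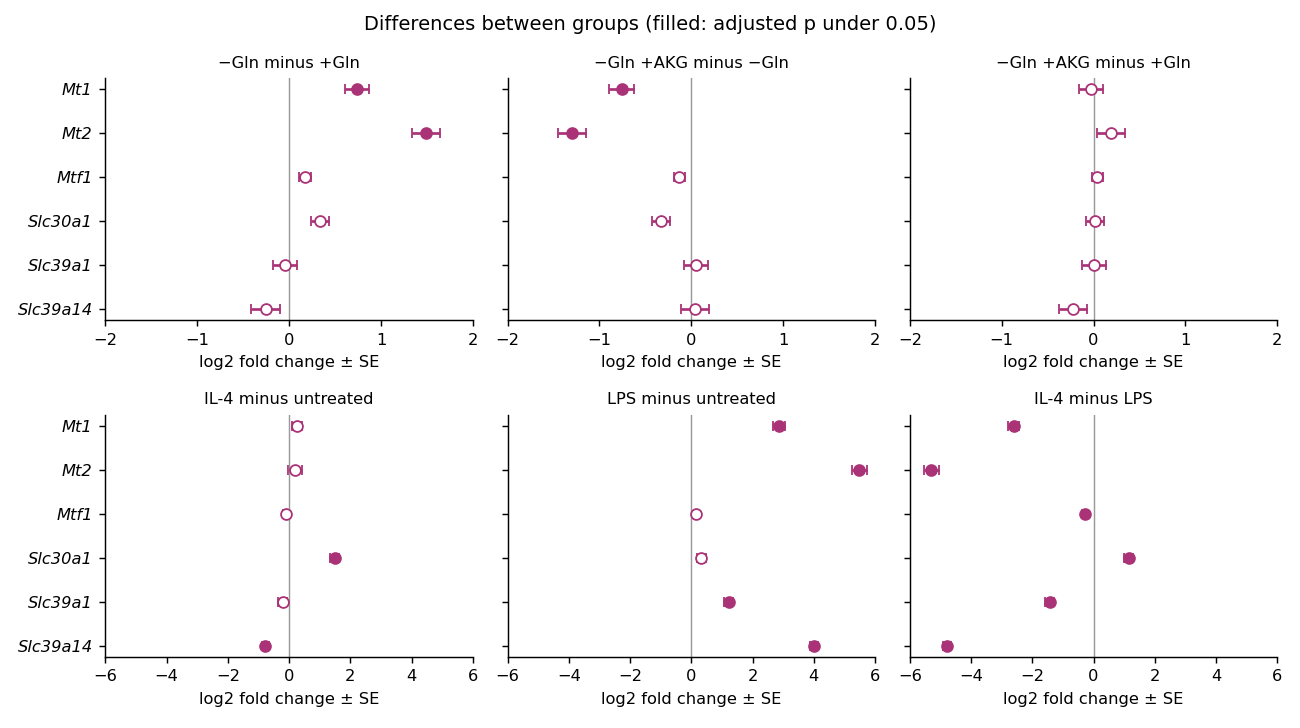
Log2 fold changes (points) with their standard errors (bars) of the 6 genes in 6 comparisons, with filled points for an edgeR adjusted p under 0.05; the upper row runs from -2 to 2 and the lower row from -6 to 6. Mt1 and Mt2 are filled in opposite directions in the first 2 panels and near 0 in the third, and Slc30a1 is the only one of the 6 on the right in the panel of IL-4 minus LPS.

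The whole carrier families were also read with IL-4 and with LPS, comparisons that share the control libraries. All counts that follow include Slc30a1, Slc39a1 and Slc39a14: with IL-4, Slc30a1 is 1 of the ZnT genes called higher and Slc39a14 1 of the ZIP genes called lower, and with LPS, Slc39a1 and Slc39a14 are 2 of the ZIP genes called higher. With IL-4, 2 of 6 ZnT genes tested were higher and 0 lower (median log2 difference 0.17), and of 14 ZIP genes 3 were higher and 2 lower (median 0.02), where 9.66% of all genes were called higher and 10.5% lower and their median was -0.04. Slc30a4, whose product loads zinc into vesicles, rose from 21.9 and 32.5 to 248 and 184 CPM (log2 2.99, SE 0.25, edgeR adjusted p = 0.0012). Slc39a6, a plasma membrane importer, rose from 60.6 and 65.3 to 160 and 164 CPM (log2 1.36, SE 0.10). Slc39a12, another importer, rose from 0.336 and 0.375 to 2.72 and 2.60 CPM, a low level throughout (log2 2.89, SE 0.25). Slc39a7, which releases zinc from the endoplasmic reticulum, rose by 0.71 on the log2 scale (SE 0.14, adjusted p = 0.0167), and that call was lost without either IL-4 library.

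With LPS 3 ZnT genes were higher and 1 lower (median 0.48), and 4 ZIP genes were higher and 2 lower (median 0.12), where 22.8% of all genes were called higher and 29.3% lower and their median was -0.10. With library totals alone the 7 higher and 3 lower carriers became 4 and 5, where 1609 of all genes were called higher and 6405 lower. Slc39a13, an importer of the secretory pathway, rose from 48.2 and 43.1 to 152 and 134 CPM (log2 1.65, SE 0.12, edgeR adjusted p = 0.000153). Slc39a6 fell to 39.1 and 38.7 CPM (log2 -0.69, SE 0.10, adjusted p = 0.0017). The ZnT genes of the secretory pathway were divided, with Slc30a5 lower (log2 -0.66) and Slc30a6 and Slc30a7 higher (0.74 and 0.62). Slc30a9, of mitochondria, was higher by 0.69, and the calls of Slc30a6, Slc30a7 and Slc30a9 were lost with library totals alone (0.29, 0.17 and 0.24).

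**Figure D5:**
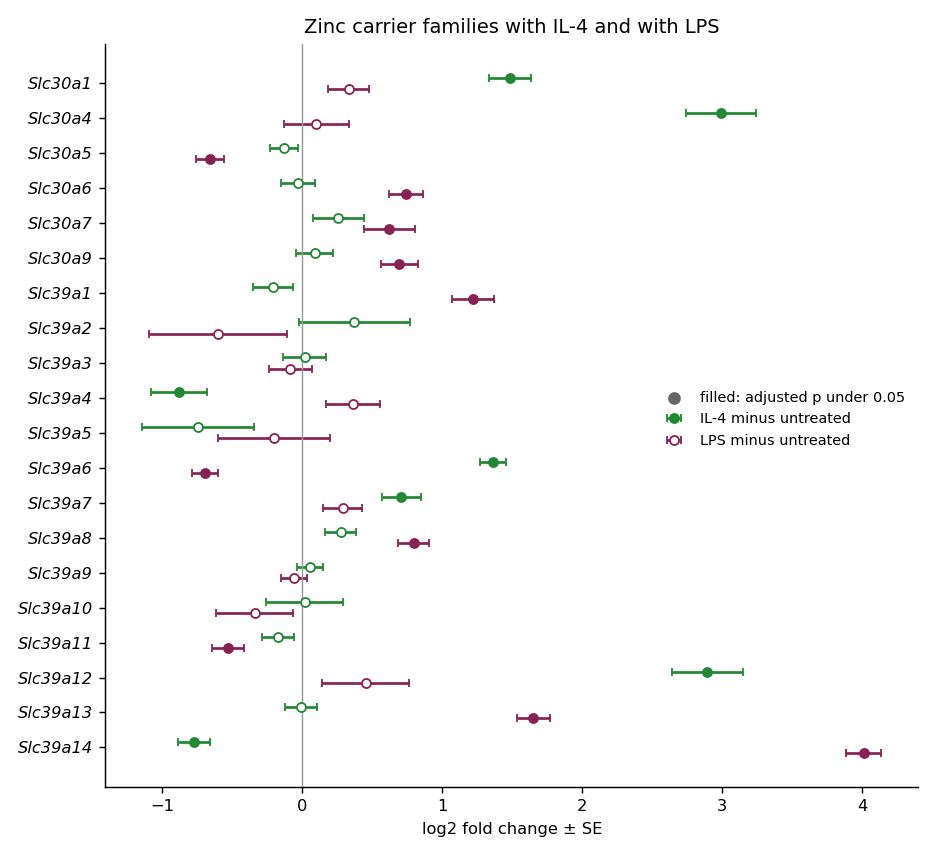
Log2 fold changes against control libraries of the 6 ZnT (Slc30) and 14 ZIP (Slc39) genes tested, green for IL-4 and purple for LPS, with standard errors as bars and filled points for an edgeR adjusted p under 0.05. Slc30a4, Slc39a12, Slc30a1 and Slc39a6 lie farthest to the right with IL-4, and Slc39a14, Slc39a13 and Slc39a1 with LPS.

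Genes of copper handling, glucocorticoid response and STAT3 feedback were read beside the zinc genes. Metals, glucocorticoids and STAT3 are known inputs to metallothionein transcription, but their part in the metallothionein changes here was not tested. With LPS 52.1% of all genes were called (22.8% higher and 29.3% lower) and with IL-4 20.1% (9.66% higher and 10.5% lower), against which the counts of these lists are to be read. With LPS 5 of 11 copper genes were higher and 2 lower (median 0.47). The copper carriers Slc31a1 and Slc31a2 rose by 2.81 (SE 0.11) and 2.97 (SE 0.12) on the log2 scale, and Cp, the copper ferroxidase ceruloplasmin, by 4.49 (SE 0.16). Sod1, the copper and zinc superoxide dismutase, fell by 0.69 (SE 0.12). With IL-4 0 copper genes were higher and 2 lower, Slc31a1 (-0.91, SE 0.10) and Sod1 (-0.79, SE 0.12), with a median of -0.11.

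All 5 STAT3 feedback genes were higher with LPS (median 3.05), among them Socs3, an inhibitor of cytokine signalling, from 6.55 and 6.35 to 1597 and 1130.2 CPM (log2 7.72, SE 0.23). With IL-4 only Pim1 of the 5 was called, higher by 1.2 (SE 0.19), and the median was -0.27. Of the 8 glucocorticoid-responsive genes 1 was higher and 4 lower with LPS (median -0.55). Tsc22d3, which encodes GILZ, fell by 3.48 (SE 0.16) and Klf9 by 2.42 (SE 0.17), while Dusp1, a MAP kinase phosphatase also raised by other signals, rose by 1.55 (SE 0.17). With IL-4 3 were higher and 3 lower (median -0.05), with Klf9 up by 2.38 (SE 0.15) and Fkbp5 by 2.04 (SE 0.17). Lower were, among others, Zbtb16 (mean 3.93 CPM in controls and 0.519 CPM with IL-4) and Dusp1 (68.6 and 23.3 CPM). S100a8, a subunit of the zinc-binding protein calprotectin, rose with LPS from 1.54 and 1.5 to 15.2 and 10.4 CPM (log2 3.07, SE 0.24). S100a9, the other S100 gene tested, was at 1.17 to 1.30 CPM in controls and 1.33 to 1.46 CPM with LPS, and was not called. Neutrophil markers, which such transcripts could accompany, summed to 0.891 and 1.01 CPM in controls and 1.46 and 1.96 CPM with LPS, with Ly6g at 0 in both groups. Of the 5 neutrophil markers 2 could be tested, and 1 was called higher with LPS. The part of neutrophils in the S100a8 value was not tested. With IL-4 the summed level of 3 dendritic cell markers rose from 0.422 and 0.456 to 6.12 and 6.75 CPM. Of these markers 2 could be tested, both called higher, and their part in the carrier changes was not tested.

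Across the 6 groups the level order differed between the genes, with the caution that the tables were scaled separately. Steps between tolerant and other groups cannot be told apart from differences between the tables, and were not tested. Mt1 and Mt2 ran from LPS through glutamine-free tolerant to the other tolerant groups and then to IL-4 and control libraries. The groups with glutamine and with AKG overlapped for both genes, and IL-4 and control libraries overlapped for Mt2. Slc39a14 was highest with LPS, followed by the 3 overlapping tolerant groups, controls and IL-4. Slc39a1 was highest with LPS, and its other 5 groups overlapped from neighbour to neighbour. Slc30a1 was highest with IL-4, at 96.4 ± 7.86 CPM (SD, n = 2), and its other 5 groups overlapped from neighbour to neighbour, between means of 34.5 and 50.4 CPM. Mtf1 means ran only from 31.5 CPM with IL-4 to 39.6 CPM without glutamine. Per kilobase of transcript, Slc39a1 had the highest mean of the 6 genes in controls, at 69.0 CPM per kb, followed by Mt1 at 45.7 and Mt2 at 8.90. With LPS the order was Mt2 at 399, Mt1 at 332, Slc39a1 at 161 and Slc39a14 at 95.3 CPM per kb, and Slc30a1 and Mtf1 were at 8.27 and 4.99.

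Profiles over all 18 libraries, as log2(CPM + 0.5) centred within each table, were compared among 9303 genes by their root mean square difference, as a description with no test. Nearest to Mt2 were Lcn2 (0.36), which encodes the siderophore-binding lipocalin-2, Tma16 (0.39) and Il1rn (0.44), the IL-1 receptor antagonist. Slc39a14 came at place 23 and Mt1 at place 41. Nearest to Mt1 were Rilpl2, P2ry2 and Ets2, each at 0.21. In that ranking Slc39a1 came at place 274, Slc39a14 at place 861 and Mt2 at place 2173. Mt2 was there at 0.73, where the root mean square of Mt1's own profile was 0.81. Near to Slc39a14 were Gcnt2 (0.25) and Lpar1 (0.26). Nearest to Slc30a1 were Stt3b (0.17), Slc19a2 (0.17) and Pde4dip (0.20), and both metallothioneins were among its farthest genes, at places 8715 and 9238. Profiles were not scaled for size, so genes that move in the same direction by unlike amounts lie apart. The large LPS and IL-4 differences carry much of these distances.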

How the data were processed

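Raw counts per gene symbol were deposited by the authors for 18 libraries, made with STAR and HTSeq on mm10 per the submitters' processing notes, and libraries were stranded total RNA per the labels' protocols. Their versions, the annotation and the strand setting of the counting are not known here. For each table separately, edgeR 4.0.16 (under R 4.3.3, with limma 3.58.1) fitted the 3 groups together: filterByExpr, TMM, the robust quasi-likelihood F test, and Benjamini-Hochberg adjustment over 12492 tolerant or 12506 stimulation genes, called under 0.05. The code was tested on simulated data. Of 21 replicate pairs, none agreed within counting noise (chi-square per degree of freedom 7.68 to 173).

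Members and lists were chosen with earlier results of these data known. Besides the 6 members, the rule named up to 4 called genes with the smallest p per list and comparison, and the 3 nearest profiles of Mt1, Mt2, Slc30a1 and Slc39a14, of which 1 is not reported here. Promoter windows matched 5 of 6 members. Transcript lengths are of the principal transcripts in GENCODE vM21.

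Replicate numbers were checked as pairs. In the tolerant table deviations from group means of same-numbered libraries correlated at 0.429 to 0.848 in all 12 pairs, so they count as paired, although differently numbered libraries of the same set (1 and 2, or 3 and 4) did so equally, at 0.404 to 0.857. The main fit had no block, so its standard errors, intervals and calls include the shift between the replicate sets in the spread. Alternatives were RLE factors, no filter, 1 CPM, DESeq2 1.42.0, limma-voom, pairs of groups alone, a block on replicate number, leaving out single libraries, and the replicate sets as a factor or alone; library totals and a crossed block were chosen after seeing the data.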

Additional observations from a re-analysis of the deposited data

Results flagged for a closer look

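Of 18 groups of 4 libraries tested for a library far from the others (6 genes in 3 tolerant groups), 1 was flagged, about what the rate of 1 in 20 gives by chance. It is Mtf1 in tolerant macrophages without glutamine and with AKG, where replicate 2 at 33.4 CPM lay below the other 3, at 36.8, 37.1 and 37.3 CPM. Its gap to the nearest library was 0.869 of the whole range.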

How the results depend on the processing

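Refitting 6 members in 6 comparisons, with 23 alternatives in each tolerant and 15 in each stimulation comparison, gave 684 values, of which 632 kept direction and side of the threshold, 14 lost a call, 10 gained one and 28 turned direction. The rise of Mt2 and Mt1 without glutamine, the fall of Mt2 with AKG, and the rises of Mt1, Mt2, Slc39a1 and Slc39a14 with LPS and of Slc30a1 with IL-4 kept their calls under every alternative run.

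Counts of genes called depended on the fit. Without glutamine 587 became 1260 (DESeq2), 243 (2 groups alone), 2707 (replicate block), 3090 with replicates 1 and 2 against 3 and 4 as a factor (5 members), 3526 in replicates 1 and 2 alone and 1670 in replicates 3 and 4 alone. With AKG against no glutamine 186 became 123 (no filter), 682 (DESeq2), 60 (2 groups alone, 1 member), 1917 (block), 2312 (factor), 2908 and 703 (replicates 1 and 2, and 3 and 4). With AKG against glutamine 0 became 232 (DESeq2), 876 (block), 4 (library totals), 1133 (factor), 1433 and 790. With one library left out, 229 to 529 genes were called without glutamine, 28 to 158 with AKG against no glutamine (1 to 2 members) and 944 to 2751 with IL-4 (1 to 2 members). Without replicate 2 of the AKG group 28 were called, and without replicate 2 of the glutamine-free group 32 and 229. Fewer libraries were fitted there. The cause of the other shifts was not tested.

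The block changed no other member call than those of Slc30a1 and Mtf1 given above. In the stimulation table deviations of IL-4 and control libraries with the same number correlated negatively, and with the IL-4 numbers crossed the block called 3965 genes with IL-4, in place of 1961 as numbered.

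Directions turned only for differences near 0, or with library totals. In replicates 3 and 4 alone, Slc39a1 was 0.049 without glutamine, and with AKG against no glutamine Slc39a1 was -0.046 and Slc39a14 -0.092. Library totals gave Slc39a14 -0.0047 there, and against glutamine Slc30a1 -0.018 and Slc39a1 -0.030. In replicates 1 and 2 alone, AKG against glutamine gave Mt1 0.00012 and Slc30a1 -0.093. With LPS library totals gave Mtf1 -0.28 and Slc30a1 -0.12, and with IL-4 against LPS Mtf1 0.21. With one library left out, Slc39a1 ran from -0.095 to 0.029 without glutamine, from -0.034 to 0.128 with AKG against no glutamine and from -0.080 to 0.096 against glutamine. Slc39a14 ran from -0.046 to 0.121 with AKG against no glutamine. Against glutamine Mt1 ran from -0.084 to 0.036 and Slc30a1 from -0.041 to 0.070.

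With 2 libraries per stimulation group, small differences such as those of Mtf1 are poorly resolved, as the standard errors given with them show.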
